A study of Mus musculus with 12 samples.

Results

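A set of 7 genes of NF-kB signalling and cell survival was followed in thymocytes, made up of Nfkbid, Tnfaip3, Bcl10, Malt1, Bcl2, Cflar and Serpinb9. They were taken by symbol, as every probe set to which the array annotation gave one of these symbols and no other. This gave 7 of the 9607 genes that had a probe set of their own on the array, and 12 of its 22511 probe sets other than controls. Bcl2 had 4 of them, Malt1 had 3 and each of the other genes had 1. No probe set with several symbols held a member gene.

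RNA was measured on 12 Affymetrix MOE430B arrays, with 1 sample per array. All mice had the B10 background, were 6 to 8 weeks old, were untreated and carried a transgenic T cell receptor. Single-positive thymocytes came from TCR:HEL mice and from TCR mice, and so did double-positive thymocytes, which made 4 groups of 3 biological replicates. TCR:HEL mice also carried a transgene for the antigen HEL, and TCR mice had the receptor alone. Single-positive cells were CD4+ and are labelled as undergoing negative selection in TCR:HEL mice and positive selection in TCR mice. Double-positive cells are labelled pre-selection in both. The promoters of the transgenes and the cells that make HEL are not given in the sources used here, nor is the number of mice behind a sample. Each sample was RNA of 100000 to 1000000 sorted cells.

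NF-kB is a family of dimeric transcription factors that inhibitor proteins hold in check. In T cells the antigen receptor activates it through a protein complex that holds BCL10 and MALT1 and switches on the kinases that remove the inhibitors. Its targets include its own inhibitors and genes that protect from cell death, so that it takes part both in the survival of thymocytes and in the limits set on their response. Nfkbid encodes IkBNS, a nuclear inhibitor of the IkB family that was first described in mouse thymocytes undergoing negative selection. Tnfaip3 encodes A20, an enzyme that edits ubiquitin chains and damps NF-kB signalling. Bcl2 blocks the mitochondrial path to cell death, Cflar encodes c-FLIP, which holds back caspase-8, and Serpinb9 encodes an inhibitor of granzyme B.

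Promoter sequence is shown for both inhibitor genes, because the Nfkbid signal carries the main difference between groups and Tnfaip3 is the other member that feeds back on NF-kB. Windows from RefSeq (GRCm38.p6) were used for 6 of the 7 genes, and Malt1 is named only. The 250 bases before each listed start were searched on both strands for the kB consensus motif, the 10-base site to which NF-kB binds. Of the 9 windows of the members, 3 held a match, against 7.25% of 32851 windows of all genes. The matches lay before 1 start each of Nfkbid, Tnfaip3 and Bcl10. The Nfkbid and Tnfaip3 windows held 2 each and the Bcl10 window held 1, where 1.03% of all windows held 2 or more. No window of Bcl2, Cflar or Serpinb9 held one. In the windows below, read 5′ to 3′ on the gene's strand, capitals mark the matches.
Nfkbid, the second of 3 listed starts, plus strand, chr7:30422156-30422405: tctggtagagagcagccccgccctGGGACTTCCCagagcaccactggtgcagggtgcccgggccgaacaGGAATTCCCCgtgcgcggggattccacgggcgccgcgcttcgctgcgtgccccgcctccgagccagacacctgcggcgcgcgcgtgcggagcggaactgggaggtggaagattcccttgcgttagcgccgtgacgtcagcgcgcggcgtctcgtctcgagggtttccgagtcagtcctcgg
Tnfaip3, the first of 2 listed starts, minus strand, chr10:19015411-19015660: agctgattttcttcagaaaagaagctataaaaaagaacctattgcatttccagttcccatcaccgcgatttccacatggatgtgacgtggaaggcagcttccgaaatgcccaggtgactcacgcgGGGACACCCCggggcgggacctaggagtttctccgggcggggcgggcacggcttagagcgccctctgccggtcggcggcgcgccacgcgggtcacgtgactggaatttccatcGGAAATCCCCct
In Nfkbid, GGGACTTCCC lies 226 to 217 bases before the start and GGAATTCCCC, a match read on the opposite strand, 181 to 172 bases before it. In Tnfaip3, GGGACACCCC lies 125 to 116 bases before the start and GGAAATCCCC, again on the opposite strand, 12 to 3 bases before it. The other 2 Nfkbid windows and the other Tnfaip3 window held none. A match is a run of letters and was not tested for binding.

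Levels are MAS5 signals, intensities on a linear scale. Each array had been scaled so that its 2% trimmed mean was 150, and median signals per array lay between 63.0 and 81.3. The arrays were hybridized on 8 days that form 3 periods parted by more than 35 days. Period 1 held replicate 1 of TCR:HEL and of TCR single-positive cells. Period 3 held TCR:HEL single-positive replicates 2 and 3, TCR single-positive replicate 3 and TCR:HEL double-positive replicate 3, and period 2 held the rest, so that cell stage and period largely coincided. The 5′ to 3′ ratio of the Gapdh control was lowest on replicate 1 of TCR:HEL single-positive cells (0.0856), of TCR single-positive cells (0.0379) and of TCR double-positive cells (0.107), and it was 0.195 to 0.453 on the other arrays. Of 11 markers of double-positive cells 4 were measured here. The signal of Cd8a was 1118 ± 391 in TCR:HEL and 651 ± 117 in TCR single-positive cells, and 5612 ± 470 in TCR:HEL and 7311 ± 680 in TCR double-positive cells (SD, n = 3 each). Arpp21 had 102 ± 25.2 in TCR:HEL and 24.5 ± 24.0 in TCR single-positive cells, and 292 ± 80.3 in TCR:HEL and 156 ± 47.5 in TCR double-positive cells. Ccr9 had 233 ± 58.4 in TCR:HEL and 171 ± 21.4 in TCR single-positive cells, and 267 ± 38.4 in TCR:HEL and 279 ± 51.3 in TCR double-positive cells. Themis overlapped between the stages in both kinds of mice, at 2340 ± 822 in TCR:HEL and 1790 ± 946 in TCR single-positive cells, and 2796 ± 2066 in TCR:HEL and 2782 ± 210 in TCR double-positive cells. All 4 thus averaged lower at the single-positive than at the double-positive stage. All 4 also averaged higher in TCR:HEL than in TCR single-positive cells. The Themis medians were 1978 in TCR:HEL and 2100 in TCR single-positive cells, and 1883 in TCR:HEL and 2891 in TCR double-positive cells. They thus kept the order of the means only between the stages of TCR mice. Ccr9 overlapped between the stages of TCR:HEL mice, at 195 to 300 against 232 to 308. The part of double-positive cells in the antigen comparison of single-positive cells was not tested. Of 8 genes planned as checks of the labels 2 were measured, Cd8a and Cd69. Cd69 had 3206 ± 564 in TCR:HEL and 1449 ± 550 in TCR single-positive cells, and 566 ± 212 in TCR:HEL and 889 ± 298 in TCR double-positive cells. Of 10 markers of mature CD4 cells none was measured here, Cd4 included, so the label CD4+ itself was not checked.

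Nfkbid was higher in single-positive than in double-positive cells of both kinds of mice, and no other member passed the test in any comparison. On probe set 1436074_at the signals were 3936, 6900 and 2839 in TCR:HEL single-positive cells. They were 1709, 3167 and 1461 in TCR single-positive cells. In double-positive cells they were 365, 692 and 376 with TCR:HEL and 513, 294 and 581 with TCR. Every single-positive array lay above every double-positive array, and TCR single-positive replicate 2 was the only TCR array within the TCR:HEL single-positive range. Group means were 4558 ± 2101 in TCR:HEL and 2112 ± 922 in TCR single-positive cells, and 478 ± 186 in TCR:HEL and 463 ± 150 in TCR double-positive cells (SD, n = 3 each).

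**Figure D1:**
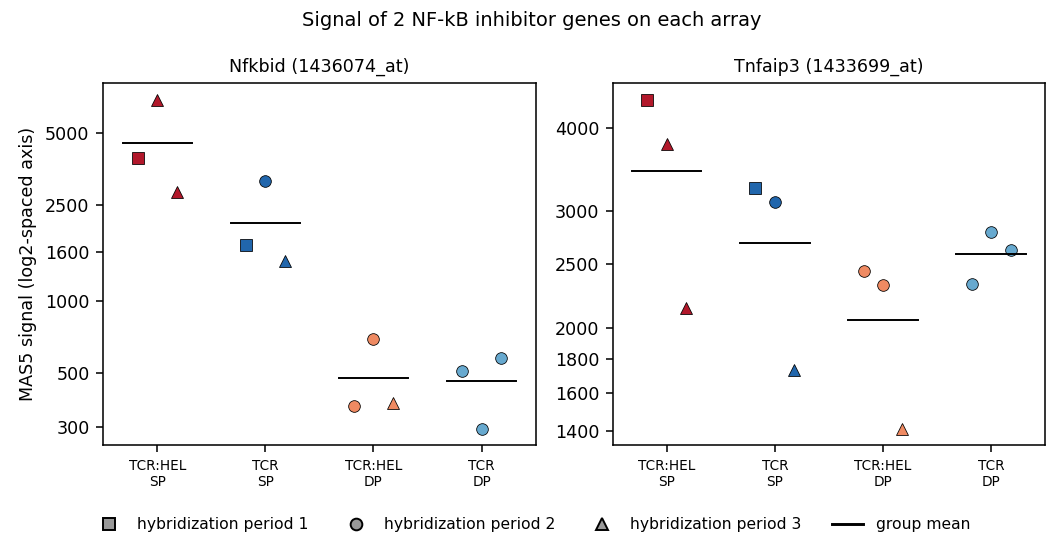
MAS5 signal of Nfkbid and Tnfaip3 (log2-spaced vertical axis) on each array in TCR:HEL and TCR single-positive (SP) and double-positive (DP) thymocytes, with marker shape giving the hybridization period and lines the group means. The 6 single-positive arrays of Nfkbid, at 1461 to 6900, sit above the 6 double-positive arrays, at 294 to 692, whereas the groups of Tnfaip3 overlap.

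Fold changes are differences of log2(signal + 16) from limma fitted to all 13703 probe sets above the array median on at least 3 arrays, and a probe set was called at a Benjamini-Hochberg adjusted p under 0.05. All 12 member probe sets passed this filter. Nfkbid rose in TCR:HEL single-positive cells by 3.18 ± 0.39 against TCR:HEL double-positive cells (SE; 95% confidence interval 2.34 to 4.01; limma adjusted p = 0.000528). It ranked 20th by p of all probe sets. In TCR mice it rose by 2.12 ± 0.39 (interval 1.28 to 2.96; limma adjusted p = 0.00527), ranking 193rd. So 1 of 12 members was called higher in each stage comparison, where 0.876% of all probe sets were called higher in TCR:HEL mice and 1.12% in TCR mice.

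The stage difference of Nfkbid was also present within single hybridization periods. Within period 3 it was 3.50 in TCR:HEL mice, from 2 single-positive arrays and 1 double-positive array. Within period 2 it was 2.79 in TCR mice, from 1 single-positive array and 3 double-positive arrays. These samples are pools of sorted cells, in which more cells expressing a gene and more RNA per cell cannot be told apart.

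In single-positive cells Nfkbid was 1.09 ± 0.39 higher with the antigen than without it, which did not pass (interval 0.25 to 1.93; unadjusted p = 0.0144, limma adjusted p = 0.525). The difference was positive in all 3 pairs of arrays with the same replicate number, at 1.20, 1.12 and 0.95. Pair 2 set a TCR:HEL array of period 3 against a TCR array of period 2. The difference was 1.20 within period 1, from 1 array each, and 1.59 within period 3, from 2 TCR:HEL arrays and 1 TCR array. In double-positive cells it was 0.04 ± 0.39 (interval -0.80 to 0.88). The antigen effects at the 2 stages differed by 1.05 ± 0.56, an interaction that did not pass (interval -0.14 to 2.24; limma adjusted p = 0.998).

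The genes whose signals followed that of Nfkbid most closely over the 12 arrays, among 9307 probe sets of other single genes, were Phf11d (Pearson r = 0.968), Asb2 (r = 0.966) and Atp10d (r = 0.952). The 12 arrays share the large stage difference, so these values describe its pattern. Among the other members the closest were Bcl2 on 1457687_at (r = 0.857) and Malt1 on 1456126_at (r = 0.837).

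Tnfaip3 was abundant at both stages and did not pass in any comparison. On 1433699_at the signals were 4415, 3780 and 2147 in TCR:HEL single-positive cells and 3245, 3094 and 1731 in TCR single-positive cells. They were 2438, 2319 and 1412 in TCR:HEL double-positive cells and 2331, 2793 and 2620 in TCR double-positive cells. The lowest array of each of the first 3 groups was replicate 3, which in all 3 belonged to period 3, and all groups overlapped. The other array of period 3, TCR:HEL single-positive replicate 2, had 3780. The stage difference was 0.72 ± 0.33 in TCR:HEL mice (interval 0.02 to 1.42; limma adjusted p = 0.387) and 0.01 ± 0.33 in TCR mice (interval -0.69 to 0.71; limma adjusted p = 0.994). Within period 3 the TCR:HEL stage difference was 1.00. With antigen against without, it was 0.35 ± 0.33 in single-positive cells and -0.36 ± 0.33 in double-positive cells. The single-positive difference was positive in each of the 3 pairs (0.44, 0.29 and 0.31), of which pair 2 spanned periods 3 and 2.

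Bcl10, the adaptor of the receptor complex, had nearly level signals. On 1443524_x_at, a probe set type whose probes can match other transcripts, they were 1303, 1471 and 1132 in TCR:HEL single-positive cells and 1390, 1325 and 1249 in TCR single-positive cells. Double-positive cells had 1398, 1406 and 1290 with TCR:HEL and 1337, 1894 and 1326 with TCR. TCR double-positive replicate 2 stood above the other 11 arrays, and all groups overlapped. The 4 fold changes lay between -0.18 and -0.03, each with an SE of 0.23, and their intervals together ran from -0.67 to 0.47.

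Malt1, the protease of the same complex, was read by 3 probe sets, all of which averaged higher in single-positive cells of both kinds of mice without passing the test. On 1456126_at the signals were 332, 386 and 328 in TCR:HEL single-positive cells and 367, 343 and 372 in TCR single-positive cells. They were 248, 255 and 227 in TCR:HEL double-positive cells and 319, 233 and 279 in TCR double-positive cells. The stages did not overlap in either mouse, with differences of 0.49 ± 0.23 in TCR:HEL mice (limma adjusted p = 0.404) and 0.37 ± 0.23 in TCR mice (limma adjusted p = 0.533).

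The other 2 Malt1 probe sets were more scattered. On 1445068_at TCR:HEL cells had 113, 116 and 152 at the single-positive stage and 73.5, 46.4 and 65.2 at the double-positive stage, a difference of 0.88 ± 0.33 (limma adjusted p = 0.229). The double-positive signals of 46.4 and 65.2 were low, below the medians of their arrays (66.3 and 69.8). TCR cells had 80.9, 163 and 193 at the single-positive stage against 102, 71.9 and 107 at the double-positive stage, a difference of 0.50 ± 0.33. The TCR stages overlapped through TCR single-positive replicate 1, the array with the lowest Gapdh ratio. The part of that ratio in the overlap was not tested. On 1456429_at TCR:HEL cells had 397, 470 and 570 at the single-positive stage against 257, 150 and 377 at the double-positive stage (0.91 ± 0.49, limma adjusted p = 0.488). TCR cells had 155, 312 and 880 at the single-positive stage against 251, 124 and 159 at the double-positive stage (0.98 ± 0.49, limma adjusted p = 0.396). TCR single-positive replicate 1 was again the lowest of its group, and replicate 3 was far above the other 2. Without replicate 3 the TCR difference was 0.34, the lowest of 23 alternatives, which reached 1.79 and in none of which it passed. The 3 probe sets correlated with each other over the 12 arrays at r = 0.508 to 0.727. Their antigen differences ran from -0.12 to 0.41 in single-positive cells and from -0.50 to 0.48 in double-positive cells, with no common sign.

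**Figure D2:**
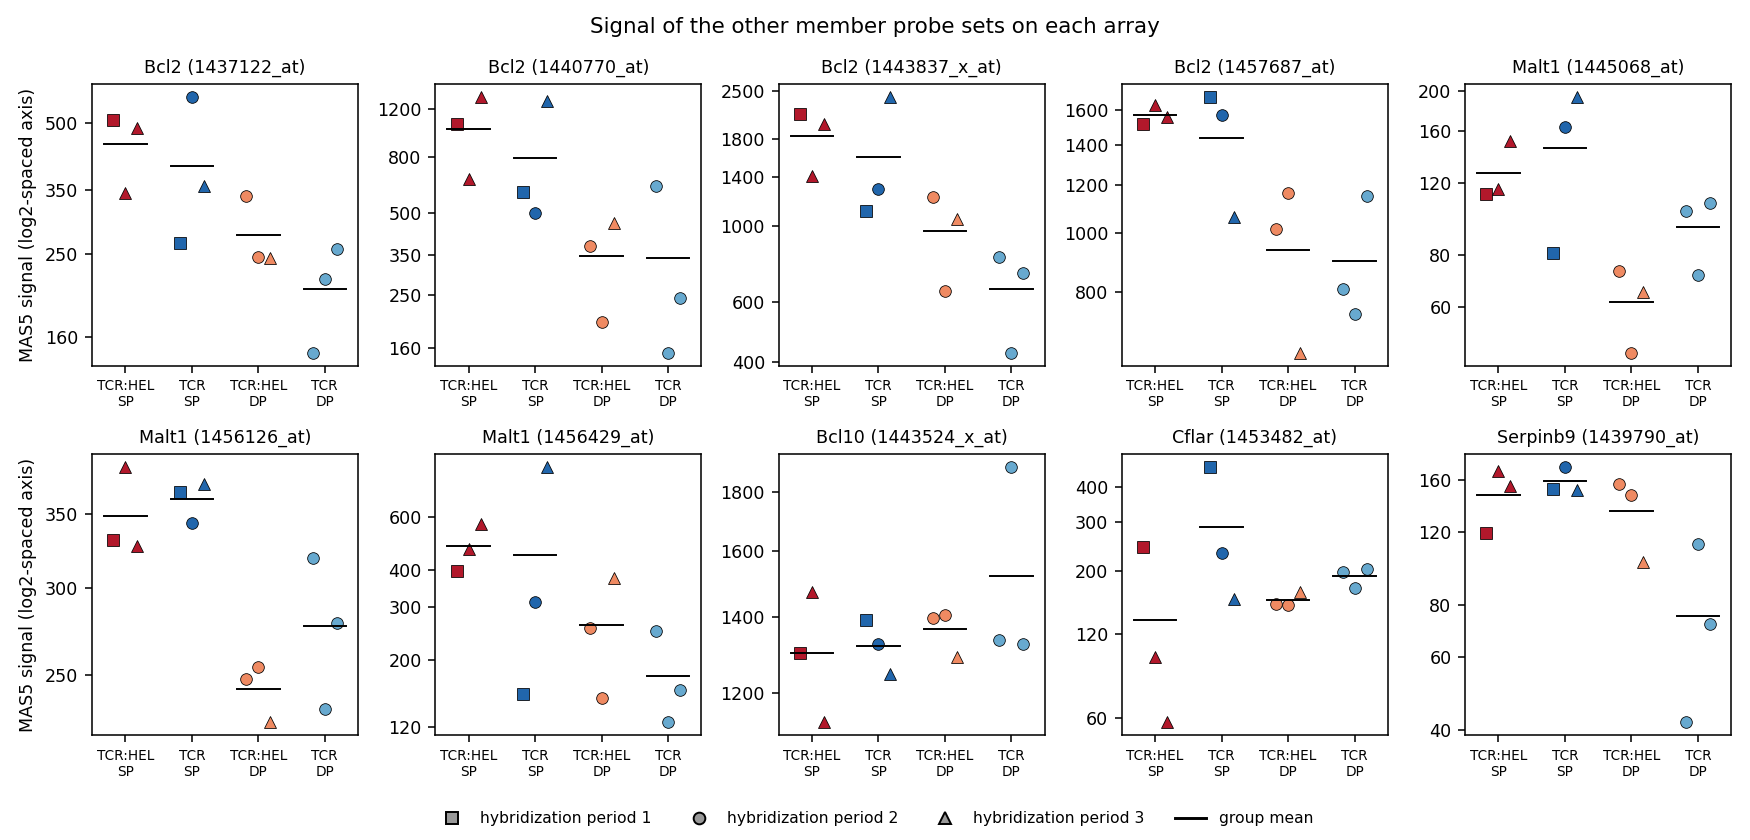
MAS5 signal (log2-spaced vertical axes) of the 10 probe sets of Bcl2, Malt1, Bcl10, Cflar and Serpinb9 on each array by group, with marker shape giving the hybridization period and lines the group means. All 4 Bcl2 probe sets average higher at the single-positive (SP) than at the double-positive (DP) stage, Bcl10 is near level, and Cflar spreads from 57.8 to 473 in single-positive cells.

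Bcl2 averaged higher in single-positive cells on all 4 of its probe sets in both kinds of mice, and none of the 8 differences passed the test. Probe set 1443837_x_at is, like that of Bcl10, of a type whose probes can match other transcripts. Its signals were 2135, 1405 and 2004 in TCR:HEL single-positive cells and 1112, 1289 and 2394 in TCR single-positive cells. Double-positive cells had 1216, 645 and 1052 with TCR:HEL and 813, 426 and 731 with TCR. The stages did not overlap in either mouse. The differences were 0.94 ± 0.35 in TCR:HEL mice (limma adjusted p = 0.235) and 1.23 ± 0.35 in TCR mice (interval 0.49 to 1.98; limma adjusted p = 0.0721).

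On 1440770_at TCR:HEL cells had 1049, 665 and 1319 at the single-positive stage against 379, 200 and 459 at the double-positive stage, and the difference was 1.53 ± 0.48 (limma adjusted p = 0.140). TCR cells had 595, 500 and 1279 at the single-positive stage against 626, 154 and 244 at the double-positive stage, with a difference of 1.28 ± 0.48 (limma adjusted p = 0.203), and overlapped through TCR double-positive replicate 1. This array also had the lowest Gapdh ratio of the double-positive arrays. TCR:HEL single-positive replicate 1, with a ratio of 0.0856, had 1049 and lay above the double-positive arrays. The part of the ratio in the overlap was not tested. Without TCR double-positive replicate 1 the TCR difference on this probe set was 1.82 (limma adjusted p = 0.0461). It passed in this 1 of 23 alternatives. Over all 23 the TCR difference ran from 0.84 to 1.96, the lowest with the hybridization period as a block (limma adjusted p = 0.628). That block gave 1.09 in TCR:HEL mice, where the difference passed in 1 of 23 alternatives.

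On 1437122_at the single-positive signals were 510, 345 and 487 in TCR:HEL and 264, 575 and 359 in TCR mice. The double-positive signals were 339, 245 and 244 in TCR:HEL and 147, 219 and 257 in TCR mice. The stages did not overlap in either mouse, but lay close, with differences of 0.66 ± 0.32 in TCR:HEL mice (limma adjusted p = 0.413) and 0.86 ± 0.32 in TCR mice (limma adjusted p = 0.197). On 1457687_at TCR:HEL cells had 1516, 1628 and 1559 at the single-positive stage against 1017, 1166 and 634 at the double-positive stage, a difference of 0.77 ± 0.29 (limma adjusted p = 0.234). TCR cells had 1678, 1570 and 1063 at the single-positive stage against 807, 736 and 1153 at the double-positive stage, which overlapped, with a difference of 0.67 ± 0.29 (limma adjusted p = 0.297). Over the 12 arrays 1440770_at and 1443837_x_at correlated at r = 0.927 and the other pairs of Bcl2 probe sets at 0.431 to 0.719.

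The Bcl2 stage differences were positive within periods too. In TCR:HEL mice within period 3 they ran from 0.67 to 1.31 over the 4 probe sets, and in TCR mice within period 2 from 0.76 to 1.43. The antigen differences of Bcl2 were 0.15 to 0.42 in single-positive cells and 0.04 to 0.56 in double-positive cells, with SEs of 0.29 to 0.48, and none passed.

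Cflar averaged lower in single-positive cells with the antigen than without it, and the difference did not pass. On 1453482_at its signals were 245, 98.8 and 57.8 in TCR:HEL single-positive cells and 473, 233 and 159 in TCR single-positive cells. Double-positive cells were tightly grouped, at 153, 152 and 169 with TCR:HEL and 199, 175 and 204 with TCR. In both single-positive groups replicate 1, the array of period 1, was the highest and replicate 3 the lowest, so the spread within a group exceeded the distance between the groups. The replicate 1 arrays also had the lowest Gapdh ratios, 0.0856 in TCR:HEL and 0.0379 in TCR single-positive cells. The part of the ratio in this spread was not tested. The signal of 57.8 lay below the median of its array (81.3). The fold change with antigen was -1.09 ± 0.42 (interval -1.99 to -0.19; unadjusted p = 0.0207, limma adjusted p = 0.563). Within pairs of the same replicate number it was -0.91, -1.12 and -1.25, of which pair 2 spanned periods 3 and 2. It was -0.91 within period 1 and -0.93 within period 3. In double-positive cells the groups did not overlap, with a difference of -0.26 ± 0.42. The stage differences were -0.42 ± 0.42 in TCR:HEL mice and 0.41 ± 0.42 in TCR mice, and the interaction was -0.83 ± 0.60 (limma adjusted p = 0.998).

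Serpinb9 had its lowest group mean in TCR double-positive cells, and none of its differences passed. On 1439790_at the signals were 119, 169 and 155 in TCR:HEL single-positive cells and 153, 172 and 152 in TCR single-positive cells. Double-positive cells had 157, 148 and 102 with TCR:HEL and 41.8, 112 and 72.0 with TCR. The TCR stages did not overlap, and their difference was 1.01 ± 0.31 (interval 0.35 to 1.67; unadjusted p = 0.00529, limma adjusted p = 0.103). In TCR:HEL mice it was 0.12 ± 0.31 (limma adjusted p = 0.922). With antigen, double-positive cells were 0.78 ± 0.31 higher (unadjusted p = 0.0233, limma adjusted p = 1.00), and TCR:HEL replicate 3 overlapped TCR replicate 2. The test of whether the antigen effect differed between stages gave -0.89 ± 0.44 (unadjusted p = 0.0608, limma adjusted p = 0.998). Over 23 alternatives the TCR stage difference ran from 0.71 to 1.29 and passed in 1, without TCR double-positive replicate 2 (1.29, limma adjusted p = 0.0448).

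**Figure D3:**
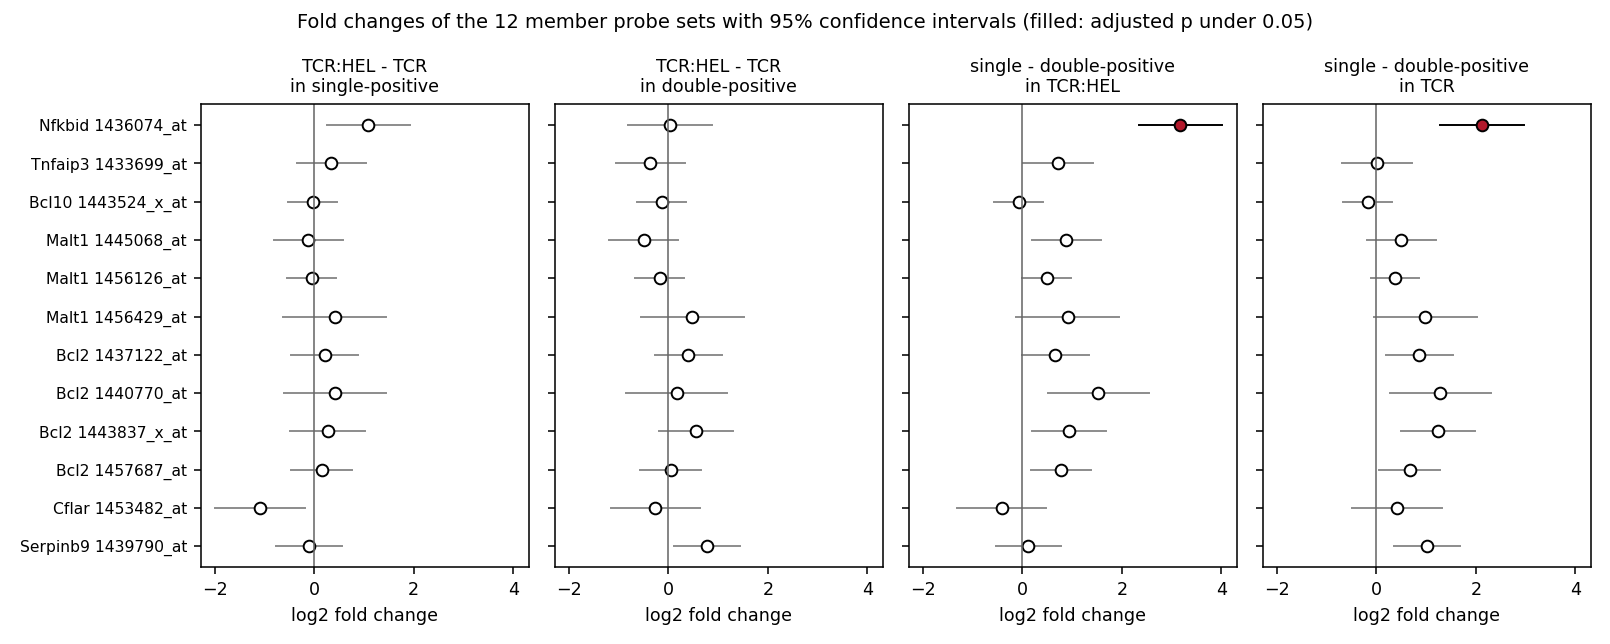
Log2 fold change of the 12 member probe sets in the 4 comparisons, with 95% confidence intervals, and filled points for an adjusted p under 0.05. The filled points are Nfkbid in both stage comparisons, at 3.18 and 2.12, and the Bcl2 and Malt1 points lie right of 0 in both of these panels.

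Between stages 10 of the 12 probe sets were higher in TCR:HEL single-positive cells and 11 of 12 in TCR single-positive cells. The median difference over members was 0.75 in TCR:HEL mice, against 0.03 over all probe sets tested, and 0.76 in TCR mice, against 0.05 over all. Single-positive arrays all lay above double-positive arrays for 8 of the 12 in TCR:HEL mice, namely Nfkbid and the Bcl2 and Malt1 probe sets, where 9.77% of all probe sets did so. In TCR mice this held for 5 of 12, namely Nfkbid, Serpinb9, Bcl2 on 1437122_at and 1443837_x_at and Malt1 on 1456126_at, against 8.2% of all. An unadjusted p under 0.05 was reached by 6 of 12 in each, against 12.4% of all probe sets in TCR:HEL mice and 14% in TCR mice. Because 7 of the 12 probe sets belong to 2 genes, these counts are not counts of independent genes. The members were also chosen with earlier results of these data known, so the values over all probe sets give no test of the set.

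Between TCR:HEL and TCR mice none of the 12 was called at either stage. In single-positive cells limma called 0.219% of all probe sets, and 2 members, Nfkbid and Cflar, had an unadjusted p under 0.05, against 7.19% of all. The median over members was 0.18, against 0.01 over all, and in no member were the groups apart, against 10.6% of all. In double-positive cells 0% of all probe sets were called, although 339 had an unadjusted p under 0.05, which is 2.47% of all, among them Serpinb9. Cflar was the 1 member with the groups apart, against 7.67% of all, and the median over members was 0.04, against 0.02 over all. For the interaction 0.0073% of all probe sets were called, and no member was, nor did any reach an unadjusted p under 0.05.

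The members were then looked at within lists of genes of their pathways, which hold the members themselves. Nfkbid and Tnfaip3 count among the inhibitors, and Bcl10 and Malt1 among the genes of their complex. Cflar and Serpinb9 count among the survival genes. Nfkbid, Tnfaip3, Cflar and Serpinb9 count among the NF-kB targets as well. The list medians are therefore not independent of the members. Of 23 inhibitors of NF-kB 13 were on the array and 12 were tested, and 1, Nfkbid, rose in each stage comparison while none fell. The other 11 did not pass. The median stage difference of the 12 was 0.54 in TCR:HEL mice, with 11 positive, and 0.25 in TCR mice, with 9 positive. Of these 11, Nfkbiz, Cyld and Nfkbia are given as values, chosen after their values were seen. Nfkbiz, another nuclear IkB protein, differed between stages by 1.03 ± 0.29 in TCR:HEL mice (limma adjusted p = 0.0900) and 0.88 ± 0.29 in TCR mice (limma adjusted p = 0.130). Cyld, which removes ubiquitin chains, differed by 0.72 ± 0.32 in TCR:HEL mice (limma adjusted p = 0.365) and 1.15 ± 0.32 in TCR mice (limma adjusted p = 0.0652), where it passed in 5 of 23 alternatives. Nfkbia, the classical cytoplasmic inhibitor and a known target of NF-kB, differed by 0.86 ± 0.28 in TCR:HEL mice (limma adjusted p = 0.161) and 0.44 ± 0.28 in TCR mice (limma adjusted p = 0.559). Between TCR:HEL and TCR mice none of the 12 passed, with medians of 0.13 in single-positive and -0.03 in double-positive cells.

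**Figure D4:**
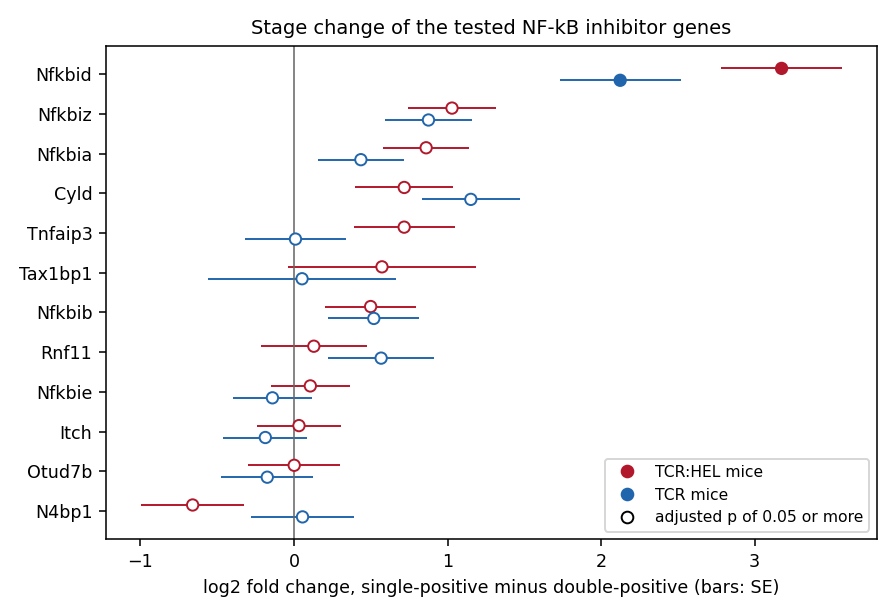
Stage difference (log2 fold change, single-positive minus double-positive, bars SE) of the 12 tested NF-kB inhibitor genes in TCR:HEL and TCR mice, with filled points for an adjusted p under 0.05. Nfkbid has the only filled points, at 3.18 and 2.12, and the next by size, Cyld in TCR mice, is at 1.15.

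Genes around the other members were mostly not called. Of 27 genes of the BCL10 and MALT1 complex, both included, and of the NF-kB kinases and their adaptors, 9 were tested. None passed in any comparison, with medians of 0.12 between stages in TCR:HEL mice and -0.14 in TCR mice. The smallest p among them was that of Traf1, an adaptor of TNF receptors, in the TCR stage comparison (1.51 ± 0.48, limma adjusted p = 0.120). Over 23 alternatives it ran from 0.66, with the hybridization period as a block (limma adjusted p = 0.679), to 2.05, without TCR single-positive replicate 2 (limma adjusted p = 0.0237), and it passed in 2. The same block gave -0.19 in place of 0.66 for Traf1 in TCR:HEL mice. Of 38 known NF-kB target genes 9 were tested, and Nfkbid alone rose, in both stage comparisons, with medians of 0.55 in TCR:HEL mice and 0.44 in TCR mice. The 5 NF-kB subunits themselves were not analysed here, and of 17 TNF receptors 1 was measured, below the filter.

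Of the anti-apoptotic BCL2 family, Bcl2 was the 1 of 8 genes on the array. Among 29 caspase and granzyme inhibitors and other survival genes 12 were tested, and 1 was called, the caspase inhibitor Aven. Aven fell by 1.71 ± 0.25 on the log2 scale in TCR single-positive cells, with signals of 329 ± 45.1 against 1115 ± 135 at the double-positive stage (SD, n = 3; limma adjusted p = 0.000851). In TCR:HEL mice its difference was -0.83 ± 0.25 (limma adjusted p = 0.129). The median of the 12 was -0.34 between stages in TCR:HEL mice, with 3 positive, and 0.06 in TCR mice, with 7 positive. None of 11 tested pro-apoptotic genes, of 58, passed, with stage medians of 0.05 in TCR:HEL mice and -0.10 in TCR mice. The smallest p among them was that of Bcl2l13, a member of the BCL2 family, in TCR:HEL mice (-0.98 ± 0.29, limma adjusted p = 0.113). None of 3 tested genes of survival cytokine signalling, of 23, passed either.

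Summed signals of markers of other cell types varied between the groups as well. Of 19 B cell markers 5 were on the array, Pax5, Ebf1, Bank1, Fcmr and H2-Ob, and their summed signals were 572 to 767 in TCR:HEL and 431 to 545 in TCR single-positive cells, and 952 to 1391 in TCR:HEL and 535 to 871 in TCR double-positive cells. None of the 5 was called, and none was listed at 0 on any array. The summed 8 of 21 stromal and epithelial markers were 1590 to 2034 in TCR:HEL and 2491 to 4231 in TCR single-positive cells, and 1666 to 3426 in TCR:HEL and 991 to 2513 in TCR double-positive cells. In the group means most of this sum came from 1 gene, Epcam, at 1213 ± 294 in TCR:HEL and 2749 ± 831 in TCR single-positive cells, and 1718 ± 1030 in TCR:HEL and 1356 ± 772 in TCR double-positive cells. Which cells gave the Epcam signal was not tested. Epcam was not called. Dcn, a matrix protein of fibroblasts, rose between stages in TCR mice by 1.30 ± 0.31 (limma adjusted p = 0.0308), a call lost in 9 of 23 alternatives. The 4 of 25 myeloid and dendritic markers summed to 514 to 607 in TCR:HEL and 630 to 804 in TCR single-positive cells, and to 447 to 695 in TCR:HEL and 446 to 522 in TCR double-positive cells. In single-positive cells the B cell sums were higher with the antigen than without it, as was Nfkbid (1.09 ± 0.39). Of the 5 B cell markers 4 had a positive fold change there, while Bank1 averaged lower (133 ± 36.0 against 144 ± 38.7). The mean of Fcmr moved most, at 179 ± 68.6 with the antigen and 70.6 ± 32.9 without it. Between the stages of TCR:HEL mice the B cell sums were lower in single-positive cells, where Nfkbid was higher. The part of these cells in the members' differences was not tested.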

How the data were processed

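RNA of 12 samples was measured on MOE430B arrays. The deposited values are MAS5 signals, intensities on a linear scale, per the submitters' processing notes, which give no version or settings, and their common 2% trimmed mean shows that arrays had been scaled. Deposited record files gave the hybridization days and control ratios. No detection calls were used. After removal of 64 control probe sets, those above the array median on at least 3 of 12 arrays were tested (13703 of 22511), of which 9319 had 1 symbol in the platform annotation, 149 several and 4235 none. Signals were taken as log2(signal + 16), which understates changes of dim probe sets. Limma 3.58.1 in R 4.3.3 fitted 4 group means to all 12 arrays, with empirical Bayes moderation and a trend (8 residual and 7.01 prior degrees of freedom). The 5 contrasts were tested two-sided and adjusted by Benjamini-Hochberg over all probe sets. The script was tested on simulated data. The 3 arrays per group limit the precision. The members, gene lists and the rule for naming genes (per list and comparison, up to 5 called genes, otherwise up to 2 with the smallest p) were chosen with earlier results of these data known, and each list used 1 probe set per gene, the one with the highest mean. Replicate numbers come from the sample titles. As a check of pairing, deviations from the group means were correlated between equally numbered arrays. They gave r = 0.159, 0.204 and 0.188 in the TCR:HEL against TCR comparison of single-positive cells, where numbers were therefore read as pairs. In the other comparisons r ran from -0.0911 to 0.291 and they were not. Among these, each single-positive array of TCR:HEL mice correlated best with the double-positive array of its own number (r = 0.0921, 0.105 and 0.202). In the single-positive comparison the arrays of replicate 1 shared a hybridization day, as did those of replicate 3, and those of replicate 2 did not. For replicates 1 and 3 a shared day and a pair therefore cannot be told apart. Alternatives were other pseudocounts, filters and normalizations, period and replicate blocks, and leaving out arrays. Probe positions were not used, since the sources used here name no build for the array.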

Additional observations from a re-analysis of the deposited data

How the results depend on the processing

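Each comparison was repeated under 23 alternatives (22 for the interaction). The Nfkbid stage calls held in 23 of 23 in both kinds of mice, at 2.83 to 3.66 in TCR:HEL mice (limma adjusted p 0.000136 to 0.00646) and 1.79 to 2.60 in TCR mice (0.00227 to 0.0391). With the hybridization period as a block they were 3.66 and 2.60. The antigen difference of Nfkbid in single-positive cells was 0.74 to 1.42 and was never called (0.249 to 1.00), also with the replicate block, under which those arrays pair (0.340). No member was called in an antigen comparison or the interaction under any alternative, and no called value changed sign. With the replicate block, 2 members in place of 1 were called in each stage comparison. Equally numbered arrays correlated between the stages at r = 0.0921, 0.105 and 0.202 in TCR:HEL mice, and at 0.048, 0.291 and 0.00545 in TCR mice. Whether these numbers mark pairs is not stated in the sources used here. The added members were Bcl2 on 1440770_at in TCR:HEL mice (1.53, limma adjusted p = 0.0332) and on 1443837_x_at in TCR mice (1.23, 0.0188). Leaving out each array in turn gave 1 to 2 called members in TCR mice and 1 in TCR:HEL mice. Leaving out the 3 arrays with the lowest Gapdh ratios, chosen after those ratios were seen, gave the same counts, with Nfkbid at 3.23 and 2.33. Over all probe sets the number called varied from 118 to 370 between stages in TCR:HEL mice (271 as reported), 293 to 626 in TCR mice (484), 8 to 47 for the antigen in single-positive cells (30) and 0 to 4 for the interaction (1), the highest counts being under the replicate block in all but the last, where it was a pseudocount of 64. The call of Aven in TCR mice held in 23 of 23. The cause of these shifts was not tested. With 3 arrays per group, intervals of the members spanned at least 0.98 on the log2 scale.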
